A study of Homo sapiens with 6 samples.

Results

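HOX genes encode homeodomain transcription factors, and the account below covers those measured in HEK293-derived cells after knockdown of the TET enzymes. Members were all probe sets whose single annotated gene symbol was HOX followed by a cluster letter A to D and a number, and each gene was represented by the probe set with the highest mean log2 signal over all 6 arrays. This gave 28 genes with 44 probe sets, of 19775 genes and 54613 probe sets in the whole table. HOXA2 was the only member of cluster A found, beside 10 genes of HOXB, 9 of HOXC and 8 of HOXD. Of 38 genes named for this set, 10 had no probe set annotated to them alone and are not analysed here.

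Flp-In T-REx 293 cells descend from HEK293, an established human embryonic kidney line, and hold a single site for transgene insertion. Every sample, controls included, carried a stable inducible GFP transgene without induction. TET1, TET2 and TET3 were knocked down at once by siRNA on 3 arrays, and 3 arrays had a non-targeting siRNA pool. Total RNA was collected at 96 h from GFP clones 1, 2 and 3 under each siRNA, so every clone gave 1 array per siRNA and all arrays came from 1 cell line.

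In vertebrate embryos HOX genes give cells their position along the body axis. Within each cluster the genes lie in the order in which they are used, with low paralog numbers acting towards the head and high numbers towards the tail and the limb ends. The clusters are classic targets of Polycomb repression and Trithorax activation, and their CpG-rich promoters are kept free of DNA methylation in many cells. TET1, TET2 and TET3 oxidise 5-methylcytosine, a step towards its removal.

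RefSeq promoter windows (GRCh38.p14) were found for 11 of the 28 genes. The 250 bases before the annotated start are shown for 4 HOXD genes, chosen after their values were seen: HOXD13, which differed between clones, HOXD4, whose siRNA groups did not overlap, HOXD10, which was read by 3 bright probe sets, and HOXD12, which lay far below the brightness filter. They are read 5′ to 3′ on the plus strand, and capitals mark CG dinucleotides, the substrate sites of DNA methylation and TET enzymes.
HOXD13: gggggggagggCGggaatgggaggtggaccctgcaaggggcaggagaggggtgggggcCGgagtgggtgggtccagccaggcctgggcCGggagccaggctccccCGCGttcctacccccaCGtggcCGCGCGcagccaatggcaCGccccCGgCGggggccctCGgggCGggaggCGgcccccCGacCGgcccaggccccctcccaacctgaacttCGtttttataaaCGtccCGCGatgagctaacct
HOXD12: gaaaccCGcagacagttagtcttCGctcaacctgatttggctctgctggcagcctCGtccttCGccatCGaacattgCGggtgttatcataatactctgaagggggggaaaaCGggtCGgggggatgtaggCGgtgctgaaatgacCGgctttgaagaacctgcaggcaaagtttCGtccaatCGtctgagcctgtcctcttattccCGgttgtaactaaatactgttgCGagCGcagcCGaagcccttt
HOXD10: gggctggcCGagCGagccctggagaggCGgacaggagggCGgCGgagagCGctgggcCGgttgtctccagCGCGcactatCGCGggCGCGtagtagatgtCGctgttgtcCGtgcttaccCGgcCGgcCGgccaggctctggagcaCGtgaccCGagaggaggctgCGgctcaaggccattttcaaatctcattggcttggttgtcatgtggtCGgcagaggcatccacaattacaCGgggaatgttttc
HOXD4: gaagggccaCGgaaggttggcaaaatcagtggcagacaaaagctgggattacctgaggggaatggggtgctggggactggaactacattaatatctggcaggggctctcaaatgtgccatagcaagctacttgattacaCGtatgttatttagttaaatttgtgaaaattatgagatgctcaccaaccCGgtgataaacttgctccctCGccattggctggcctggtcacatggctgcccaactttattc

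These windows lie on chromosome 2 at chr2:176092471-176092720 (HOXD13), chr2:176099545-176099794 (HOXD12), chr2:176116528-176116777 (HOXD10) and chr2:176151300-176151549 (HOXD4). HOXD13 had 21 CG dinucleotides, HOXD12 had 16 and HOXD10 had 23, while HOXD4 had 4. The median over all 35116 RefSeq windows of that length was 11, and 70.7% of them held at least as many as HOXD4 against 25.8% for HOXD10. Over the 11 HOX genes with a window the median was 16, with a range of 4 for HOXD4 to 31 for HOXD1, and 8 of the 11 genes exceeded the median of all windows. Most of the 11 were HOXD genes. The only HOXA and HOXB genes with a window, HOXA2 (8) and HOXB1 (7), lay below the median of all windows, as did HOXD4. HOXC4 and HOXC5 have the same annotated start and so share 1 window, with 14 CG dinucleotides, which is counted for each of them. The letters TGATNNAT, read on both strands, are a form in which PBX and HOX proteins can bind together. They occurred in the windows of 3 of the 11 genes (HOXA2, HOXB1 and HOXD11) and in 6.47% of all windows. No methylation was measured in these samples, and no link between these windows and the signals was tested.

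Each of the 3 siRNA targets had a lower signal on every TET siRNA array than on any control array. TET1 (Entrez gene 80312) had signals of 448, 621 and 685 under TET siRNA in clones 1, 2 and 3 and of 3073, 3123 and 3470 in the controls, which is 17.9% of control. TET2 was at 46.8% and TET3 at 42.9% of control. Over all probe sets, limma called TET1 (adjusted p = 0.0033). TET2 (0.327 without a replicate block for the clone, 0.0335 with it) and TET3 (0.1003 and 0.0196) were called with the block alone. Of 9 markers set for HEK293 cells (neuronal filaments, keratins, cadherin 2, vimentin and nephrogenic factors), 8 were above the brightness filter and LHX1 was below it. The summed signal of the 9 markers was 65208 to 77501 under TET siRNA and 75588 to 80768 in the controls. Vimentin (mean 35093 under TET siRNA and 36342 in the controls) and NEFL (19627 and 22354) made up most of that sum. Its low end was the TET siRNA array of clone 1. INA and PAX2 had positive log2 differences (0.15 and 0.13) and the other markers negative ones. Of 6 markers of blood, endothelium and liver, HBB and PECAM1 were above the filter, and the summed signal was 546 to 655 against 497 to 595. The ratios of 3′ to 5′ control probe sets were 1.05 to 1.07 under TET siRNA and 1.04 to 1.08 in the controls for GAPDH, and 1.89 to 2.15 and 2.01 to 2.07 for actin. In such bulk RNA, fewer cells of a type and less RNA per cell cannot be told apart.

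None of the HOX genes passed the test for a difference between the siRNAs. Of the 28 genes, 25 were bright enough to test, meaning that the probe set lay in the upper 50% of all by mean log2 signal (a geometric mean of at least 117). In limma 0 of the 25 had an adjusted p under 0.05 (0.726 to 1.00), where 0.0162% of 12318 tested genes passed, and 0 of 25 with the replicate block (0.163 to 0.999), where 1.32% passed. At an unadjusted p under 0.05 there was 1 HOX gene, HOXB5, against 6.96% of all genes. Of the 34 tested HOX probe sets 0 passed (0.0146% of all probe sets did), and 2 had an unadjusted p under 0.05 (against 6.61%), both of HOXB5. With the replicate block the unadjusted count was 4 genes (16%), HOXB5, HOXB8, HOXC11 and HOXD9, all positive, where 16.1% of all genes had such a p. Over probe sets it was 6 of 34, against 14.4% of all. Neither count of genes exceeded its background. In the fit without the block, the 95% intervals from limma excluded a change of 2-fold or more in either direction for 24 of the 25. The exception was HOXD9, whose interval reached 1.20 on the log2 scale. The standard errors of the log2 differences in that fit, which include the spread between clones, ran from 0.09 to 0.32 with a median of 0.15.

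**Figure D1:**
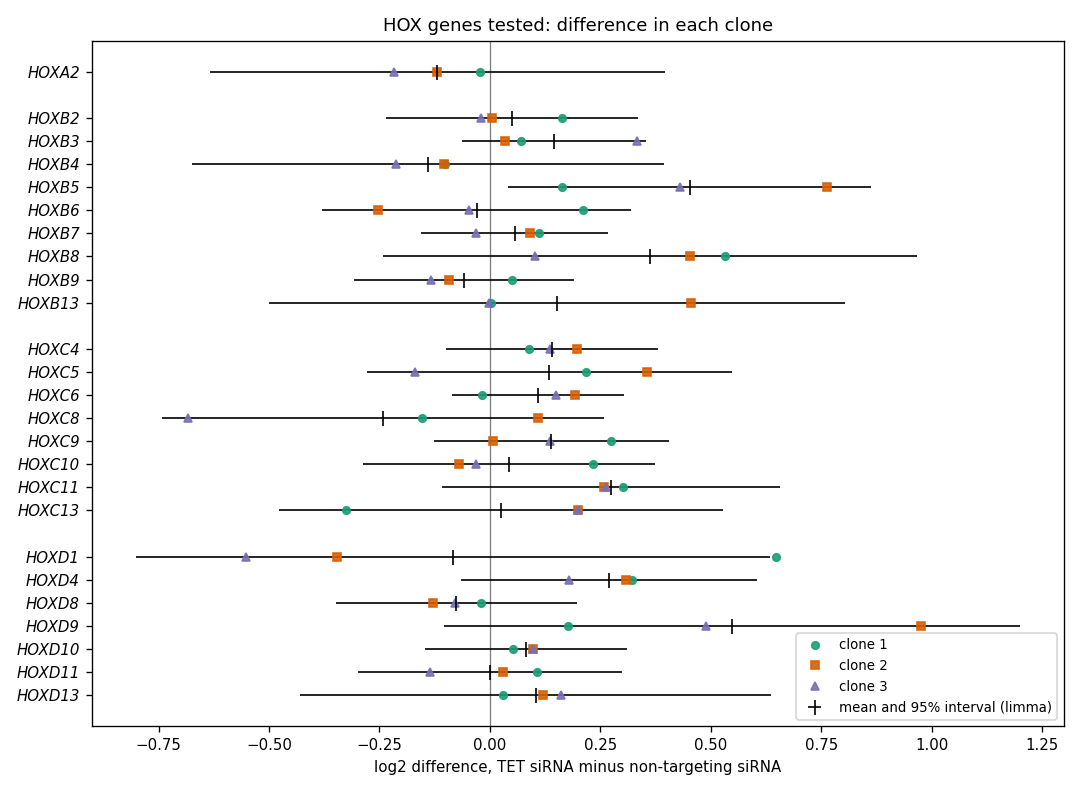
Log2 difference between TET siRNA and non-targeting siRNA (horizontal axis) for the 25 tested HOX genes, grouped by cluster, with a point for each clone and a bar for the mean and its 95% interval in limma. Nearly all bars span 0; HOXB5 lies from 0.04 to 0.86 before any adjustment, and HOXD1, HOXB13 and HOXD9 show the widest intervals.

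The differences were small and mostly positive. Of the 25 genes 18 (72%) had a positive difference, where 51.9% of all tested genes did, and the median was 0.08 against 0.01 on the log2 scale. With 1 array left out the count ran from 14, without the TET siRNA array of clone 3, to 18, and it was 15 without the control of clone 1. The median then ran from 0.03 (without the control of clone 2) to 0.13 (without the control of clone 3). The sign was shared by all 3 clones for 10 genes as higher (40%, against 19.9% of all genes) and for 3 as lower (against 18%), and it was mixed in the other 12. Positive differences numbered 19 in clone 1, 18 in clone 2 and 12 in clone 3. Of all tested genes 51.7%, 53.6% and 48.2% were positive in these clones, so that clone 3 showed no excess. The medians were 0.11 in clone 1 and 0.10 in clone 2 and lay near 0 in clone 3. No test of the set was made.

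By position, 2 of 4 tested genes of paralog groups 1 to 3 had a positive difference, as did 7 of 11 of groups 4 to 8 and 9 of 10 of groups 9 to 13. The medians were -0.02, 0.11 and 0.09 in that order. Of the 9 positive posterior genes, HOXD11, a gene of limb and kidney patterning, stood at 0.00 with 1236, 1084 and 1221 under TET siRNA against 1148, 1062 and 1341. By cluster, the medians were 0.06 over 9 HOXB genes (6 positive), 0.12 over 8 HOXC genes (7 positive) and 0.08 over 7 HOXD genes (5 positive).

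HOXB5 (Entrez gene 3215), a central HOX gene with roles in lung and neural crest development, had the smallest p among the tested HOX genes. Its brightest probe set gave 643, 988 and 897 under TET siRNA in clones 1, 2 and 3 and 574, 582 and 666 in the controls. Clone 1 under TET siRNA lay below the control of clone 3, so the groups overlapped. The means were 843 ± 179 and 607 ± 50.7 (SD, n = 3 each). On the log2 scale the difference was 0.45 (SE 0.18, limma adjusted p = 0.726, and 0.163 with the replicate block). That is a 1.37-fold difference of geometric means (95% interval 1.03 to 1.82). The other HOXB5 probe set gave 649, 855 and 1028 against 509, 605.5 and 648.8, where the lowest TET siRNA array (649.1) stood just above the highest control. Its log2 difference was 0.50 (SE 0.19; limma adjusted p = 0.6995, and 0.0914 with the replicate block). Without both arrays of clone 2 the brighter probe set stood at 0.30. Both are of types that can share probes with related sequences, and they read the same transcripts, so that they are not independent.

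HOXD9 (Entrez gene 3235), which helps pattern the limb and the lower spine, had a difference that varied widely between the clones. It gave 158, 294 and 264 under TET siRNA and 139.7, 149.5 and 188.2 in the controls, and the groups overlapped through clone 1. The log2 difference was 0.55 (SE 0.29, limma adjusted p = 0.792, and 0.346 with the replicate block), with 0.18, 0.98 and 0.49 in clones 1, 2 and 3. It was 0.33 without both arrays of clone 2 and 0.82 without the TET siRNA array of clone 1. Its geometric mean signal of 191 was not far above the filter. Its second probe set was below the filter, at 4.38 to 55.7 over the arrays.

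HOXD4 (Entrez gene 3233), a hindbrain and neck gene, was the only tested HOX gene whose groups did not overlap. Its signal was 510, 575 and 546 under TET siRNA and 409, 464 and 482 in the controls (log2 0.27, SE 0.15, limma adjusted p = 0.796). Non-overlapping groups with a higher level were seen for 6.77% of all tested genes and a lower level for 6.41%, so that 1 of 25 is no more than the background. Over probe sets, 5 of the 34 tested HOX probe sets (14.7%) had non-overlapping groups, all higher, against 7.21% of all probe sets higher and 5.5% lower. These were HOXD4 and 1 probe set each of HOXB5, HOXB7, HOXB9 and HOXD10, and apart from HOXD4 none was the one that represents its gene.

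HOXD10 (Entrez gene 3236), a posterior gene of the lower spinal cord and hindlimb, was read by 3 tested probe sets with a positive difference each. The brightest gave 6984, 8156 and 8433 against 6740, 7628 and 7878, a log2 difference of 0.08 (SE 0.10, limma adjusted p = 0.932). The next gave 764, 926 and 1086 against 652, 818 and 756, and the dimmest 707.5, 839.6 and 708.3 against 595, 625 and 643. Their log2 differences were 0.31 (SE 0.17) and 0.27 (SE 0.14), and the dimmest was without overlap, so that the size of the difference depended on the probe set. Without the control of clone 1 the brightest stood at 0.01, and without the TET siRNA array of clone 1 at 0.16. In each of the 3 probe sets every clone was higher under TET siRNA than in its own control.

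**Figure D2:**
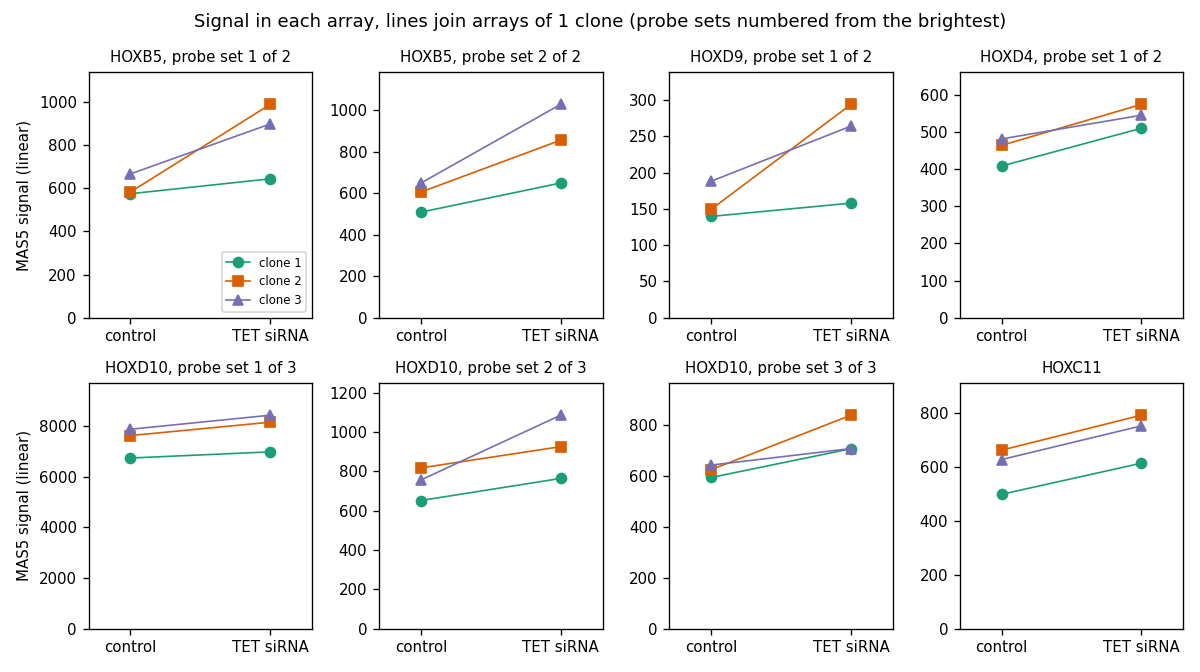
MAS5 signal on a linear scale in each array for HOXB5 (2 probe sets), HOXD9, HOXD4, HOXD10 (3 probe sets) and HOXC11, with control arrays on the left, TET siRNA arrays on the right and a line joining the 2 arrays of a clone. Every line runs upwards, and clone 1 is lowest under both siRNAs in every panel; for HOXD4 the TET siRNA arrays (510 to 575) all lie above the controls (409 to 482).

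Of the 8 tested HOXC genes 7 had a positive difference and none passed. HOXC11 (Entrez gene 3227), a posterior gene, gave 614, 793 and 753 under TET siRNA and 499, 663 and 628 in the controls. The differences were alike, at 0.30, 0.26 and 0.26 in clones 1, 2 and 3 (log2 0.27, SE 0.17, limma adjusted p = 0.825, and 0.344 with the replicate block). The groups overlapped, with clone 1 low under both siRNAs, and the difference was 0.15 without the control of clone 1. HOXC4 (Entrez gene 3221) gave 3837, 4737 and 4377 against 3608, 4129 and 3981 (log2 0.14, SE 0.11, limma adjusted p = 0.8635). HOXC6 (Entrez gene 3223), used in thoracic segments, gave 12643, 14198 and 15024 against 12797, 12427 and 13546 (log2 0.11, SE 0.09, limma adjusted p = 0.8755). Clone 1 was level for HOXC6 and the other clones higher under TET siRNA.

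The rest of HOXC had differences of -0.24 to 0.14. HOXC8, a thoracic gene, was the lowest: 310.6, 295.9 and 204.9 against 345.5, 274.5 and 329.1, with its deficit mainly in clone 3 (-0.68) and a positive value in clone 2 (0.11). HOXC5 stood at 0.13 and HOXC9 at 0.14, with signals of 390 to 496 against 331 to 439 and of 1694 to 2146 against 1686 to 1773. HOXC10 at 0.04 and HOXC13, a gene of hair and nail formation, at 0.02 were near 0, with HOXC13 lower in clone 1 (-0.33) and higher in the other clones (0.20 in each).

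In HOXB, the genes other than HOXB5 stood between -0.14 and 0.36. HOXB8 (Entrez gene 3218), a gene of trunk patterning that also acts in blood progenitors, gave 759, 754 and 1087 under TET siRNA and 525, 550 and 1013 in the controls (log2 0.36, SE 0.27, limma adjusted p = 0.862, and 0.223 with the replicate block). Its clone 3 was high under both siRNAs, and the difference was 0.19 without the TET siRNA array of clone 3 or the control of clone 1 and 0.67 without the control of clone 3. HOXB3 (Entrez gene 3213), a hindbrain gene, gave 5664, 5172 and 5962 against 5393, 5053 and 4736 (log2 0.15, SE 0.09, limma adjusted p = 0.830). HOXB2, which acts in the hindbrain segment of the facial nerve, stood at 0.05, HOXB6 at -0.03, HOXB7 at 0.06 and HOXB9 at -0.06. HOXB4, known from blood stem cells, was lower in all 3 clones (-0.10, -0.10 and -0.21) with a mean difference of -0.14. HOXB13, a prostate gene, stood at 0.15, with 0.46 in clone 2 and values near 0 in clones 1 and 3.

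HOXA2 (Entrez gene 3199), which patterns the second branchial arch, gave 228.9, 167.1 and 179 under TET siRNA and 232.3, 181.5 and 207.9 in the controls. The difference was -0.12 (SE 0.23, limma adjusted p = 0.963), and each clone was lower under TET siRNA. In HOXD, HOXD8 stood at -0.08, HOXD13 at 0.10 and HOXD1 at -0.08. The HOXD13 value turned negative without the TET siRNA array of clone 3 (-0.13) or without the control of clone 2 (-0.06). HOXD1 gave 304, 271 and 336 against 194, 345 and 493, higher in clone 1 (0.65) and lower in clones 2 and 3 (-0.35 and -0.55).

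The 3 other members lay below the brightness filter, and none passed when all probe sets were tested (0.00549% of all did). HOXB1, an early hindbrain gene, gave 48.8, 77.6 and 54.6 under TET siRNA and 19.0, 13.2 and 17.7 in the controls at its brighter probe set. The groups did not overlap (log2 1.85, SE 0.62, limma adjusted p = 0.858 over all probe sets). Its other probe set gave 42.8, 21.59 and 28.85 against 13.38, 22.39 and 90.25 and a difference of -0.01, so the probe sets did not share the direction. HOXC12 stood at -0.08 with signals of 47.3 to 61.7 over the arrays, and HOXD12 at -0.02 with 2.41 to 4.64. The dimmer HOXD1 probe set gave 9.57, 2.43 and 5.37 against 11.8, 29.7 and 39.0, also without overlap but lower. Its log2 difference was -2.26 (limma adjusted p = 0.878 over all probe sets). MAS5 values this low are unstable, and no detection call was used.

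Several probe sets per gene gave a check within the arrays. Of 6 HOX genes with more than 1 tested probe set, HOXB5 and HOXD10 had 1 sign throughout and the other 4 (HOXB3, HOXB7, HOXB9 and HOXD13) did not. HOXB9 stood at -0.06 at its brightest probe set and at 0.28 at the other, where 831, 810 and 814 stood against 615, 633 and 789 without overlap. HOXB7 stood at 0.06, 0.05 and -0.09 over its 3 probe sets, and the second gave 2848, 2830 and 2864 against 2779, 2788 and 2667 without overlap.

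For most HOX genes the spread between clones was wider than the difference between the siRNAs. The range of the 3 clone means exceeded the size of the siRNA difference for 22 of 25 genes (88%), as it did for 77.4% of all tested genes, and the median range was 0.32 against 0.25 over all genes. A range over 3 means is wider by construction than a difference of 2, so the share over all genes is the measure to set it against. HOXB3, HOXB5 and HOXD4 were the genes with the larger siRNA difference.

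**Figure D3:**
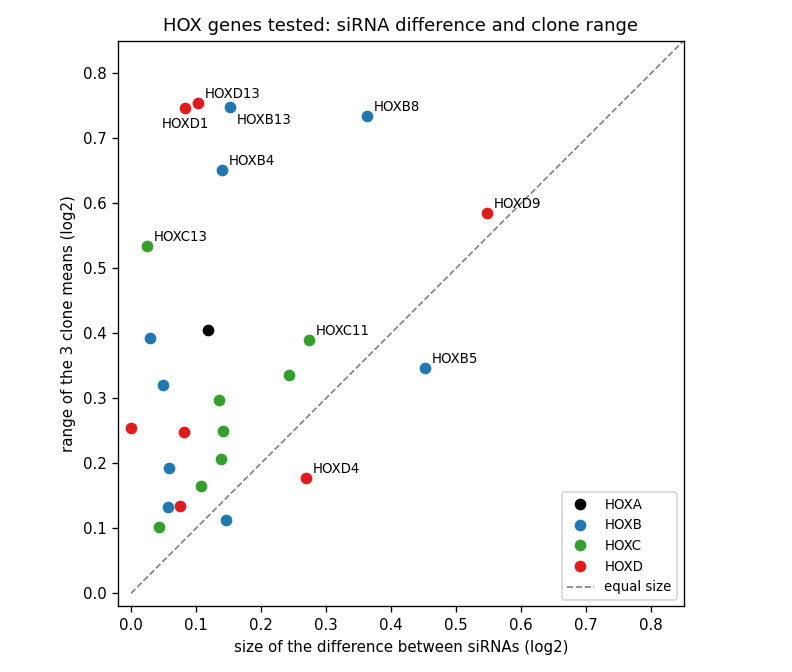
Size of the log2 difference between the siRNAs (horizontal axis) and range of the 3 clone means in log2 (vertical axis) for the 25 tested HOX genes, coloured by cluster, with a dashed line where both are equal. In the plot 22 genes lie above the line; HOXD13, HOXB13, HOXD1 and HOXB8 have clone ranges of 0.73 to 0.75, and HOXB3, HOXB5 and HOXD4 lie below the line.

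Between clones, HOXD13 and HOXB8 passed the test, both with clone 3 highest. In limma's F-test on the clone terms, with the siRNA in the model, 2 of 25 HOX genes (8%) had an adjusted p under 0.05, where 10.4% of all tested genes did. At that threshold the HOX share was no higher than that of all genes. Over probe sets, 2 of 34 passed, against 8.27% of all. At an unadjusted p under 0.05 in the same test there were 8 of the 25 HOX genes, a share close to the 26.9% of all genes. Whether that count exceeded the background was not tested. Each clone was represented by 2 arrays, 1 of each siRNA.

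HOXD13 (Entrez gene 3239), the last gene of its cluster and needed for the digits and the genital tubercle, gave 2380, 2031 and 3379 in the control arrays of clones 1, 2 and 3 and 2431, 2207 and 3776 under TET siRNA. Clone 3 stood above both other clones under each siRNA, at 1.49-fold of clone 1 (log2 0.57, SE 0.10; limma adjusted p = 0.0021 over the clones). Both other HOXD13 probe sets also had clone 3 highest: 522, 492 and 686 in the controls with 412, 499 and 830 under TET siRNA, and 240, 205 and 324 with 205, 247 and 290. The second brightest had a limma adjusted p of 0.0593 and the dimmest of 0.395. The call for the brightest held with each single array left out (limma adjusted p 0.00018 to 0.0343). It did not hold with plain empirical Bayes (0.164) or for the mean of the HOXD13 probe sets (0.0935).

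HOXB8 was 1.66-fold higher in clone 3 than in clone 1 (log2 0.73, SE 0.16; limma adjusted p = 0.0207), while clone 2 differed from clone 1 by 0.03. Its dim second probe set, below the filter, gave 27.0, 12.8 and 72.5 in the controls and 33.9, 44.9 and 81.0 under TET siRNA, again highest in clone 3. That difference was uncertain (clone 3 minus clone 1, log2 1.34, SE 0.86, unadjusted p = 0.176 over the clones in limma without the filter). The brighter probe set, which gave the call, is of a type that can share probes with related sequences. The call did not hold without the TET siRNA array of clone 1 (0.0642), without the control of clone 1 (0.0841), without the control of clone 3 (0.318), without the brightness filter (0.0794), with plain empirical Bayes (0.188) or for the mean of its probe sets (0.158). The neighbouring genes HOXB7 and HOXB9 had clone ranges of 0.13 and 0.19.

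HOXB2 and HOXB4 were nearest to the threshold among the others. HOXB2 gave 3579, 3913 and 4762 in the controls and 4010, 3924 and 4696 under TET siRNA, highest in clone 3 under both (limma adjusted p = 0.0785). HOXB4 gave 375, 590 and 558 in the controls and 350, 549 and 482 under TET siRNA, lowest in clone 1 under both (limma adjusted p = 0.0691). HOXB13 was lowest in clone 3, with 210.9 in the control and 210.5 under TET siRNA against 280 to 384 in the other 4 arrays (limma adjusted p = 0.114). Both arrays of clone 1 lay below the other 4 for 7 of 25 HOX genes (28%, against 22.3% of all tested genes), among them HOXB4, HOXC11, HOXC13 and HOXD10. Both arrays of clone 3 lay above the rest for 3 genes (12%, against 5.72%), which were HOXB2, HOXB8 and HOXD13. Clone 1 lay above the rest for HOXA2, HOXB6 and HOXB7 (against 14.5% of all genes), clone 2 above for 0 (against 6.84%) and below for HOXB6, HOXD11 and HOXD13 (against 5.54%), and clone 3 below for HOXB13 (against 3.69%). HOX genes thus did not share 1 order of clones.

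**Figure D4:**
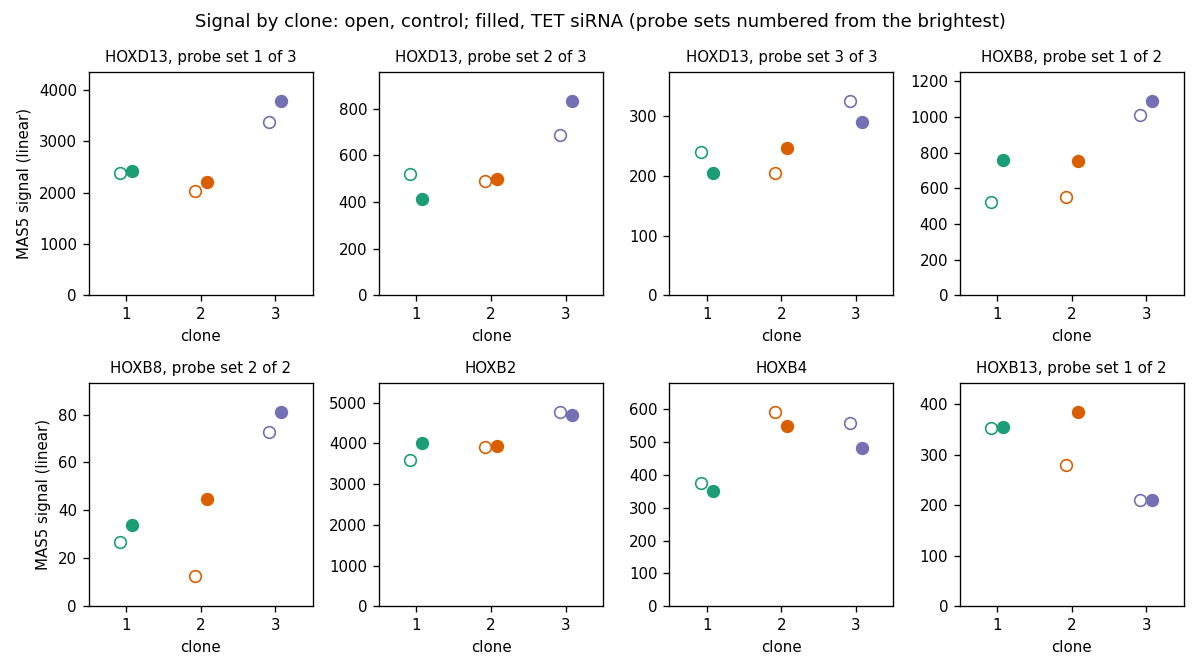
MAS5 signal on a linear scale by clone for HOXD13 (3 probe sets), HOXB8 (2 probe sets), HOXB2, HOXB4 and HOXB13, with open circles for control arrays and filled circles for TET siRNA arrays. Clone 3 is highest under both siRNAs in every HOXD13, HOXB8 and HOXB2 panel, HOXB4 is lowest in clone 1, and HOXB13 is lowest in clone 3.

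Levels of HOX genes were weakly correlated across the arrays, within a cluster as between clusters. The median Pearson correlation of log2 signal over the 6 arrays was 0.09 over 85 pairs within a cluster and 0.16 over 215 pairs between clusters, beside 0.01 over all pairs of tested genes. These pairs share the same 6 arrays and clones, and the values are a description.

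Genes that work with HOX proteins or act on the clusters also gave 0 calls in either direction, with or without the replicate block (background 0.0162% and 1.32%). Of the TALE homeodomain cofactors, which bind DNA together with HOX proteins, all 8 measured genes were tested, 7 of them positive, with a median of 0.15. PKNOX1 gave 1863, 1882 and 1860 under TET siRNA and 1728, 1486 and 1567 in the controls, without overlap (log2 0.23, limma adjusted p = 0.769), and MEIS1 stood at 0.17 (0.856), also without overlap. Such separation was seen for 6.77% of all tested genes as higher and for 6.41% as lower. In the lists below it is given for the genes named, and MEN1, MAZ and RDH10 had it too. PBX2 stood at 0.24 and differed between clones (limma adjusted p = 0.0118), lowest in clone 1.

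Among Trithorax and MLL factors, which keep HOX genes active, 4 of 11 were positive with a median of -0.03, and PSIP1 passed between clones (limma adjusted p = 0.0267). KDM6A, a demethylase of the Polycomb mark, stood at 0.28 (limma adjusted p = 0.752) and RBBP5 at 0.23 (0.774), both without overlap. Polycomb genes had 8 of 13 positive and a median of 0.04, with EZH1 at -0.17 (0.853, without overlap) and PHC2 at -0.20 (0.8635). Architectural factors and early activators had 4 of 8 positive and a median near 0, with ZNF143 at -0.19 (0.775, without overlap) and GDF11 at 0.30 (0.790).

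Retinoic acid is a classic inducer of HOX genes, and of its pathway 8 of 12 tested genes were positive with a median of 0.09. CYP26B1, which degrades retinoic acid, gave 496, 620 and 485 under TET siRNA and 375, 361 and 364 in the controls, without overlap (log2 0.53, SE 0.16; limma adjusted p = 0.602, and 0.139 with the replicate block). DHRS3, which turns retinaldehyde back into retinol, gave 681, 709 and 706 against 775, 1083 and 1048, also without overlap (log2 -0.46, SE 0.16, limma adjusted p = 0.663, and 0.125 with the block). CYP26A1 was higher in each clone with overlapping groups (log2 0.44, SE 0.21, limma adjusted p = 0.781). With the block its limma adjusted p of 0.103 was the smallest of this list. Between clones 5 of the 12 passed in limma, where 10.4% of all tested genes did, among them ALDH1A2, the main enzyme of retinoic acid synthesis in embryos (adjusted p = 0.0054), and RXRB (0.0061), both lowest in clone 1; the others were ALDH1A3, CYP26A1 and CRABP2. Of CDX, EVX and other homeobox genes, 4 of 14 measured were bright enough to test, 2 positive and 2 negative, with a median of -0.01 (MEOX1 0.21, MNX1 -0.09), and MNX1 passed between clones (limma adjusted p = 0.0284).

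Noncoding RNAs of the HOX clusters were tested for 10 of 11 measured, with 8 positive and a median of 0.08. HOXD-AS2, antisense within HOXD, gave 532.5, 473.5 and 509.5 under TET siRNA and 384, 221.8 and 444.1 in the controls, without overlap (log2 0.59, SE 0.25, limma adjusted p = 0.749). HOXB-AS3 stood at 0.18 (0.901), HOTAIR of the HOXC cluster at 0.11 and HOTTIP of the HOXA end at -0.18. Of 20 tested genes in the neighbourhood of the clusters, 8 were positive with a median of -0.03. CBX5, a heterochromatin protein gene beside HOXC, stood at 0.24 (limma adjusted p = 0.754) and JAZF1 at 0.17 (0.824).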

How the data were processed

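The authors deposited 1 table of intensity values, MAS5 signals per probe set on a linear scale, for 6 one-colour Affymetrix arrays, made with MAS5 (no version given) per the submitters' processing notes. The mean of each array without its highest and lowest 2% of values was 1000, so the values were already scaled and were not normalized again. MAS5 works array by array and leaves dim probe sets noisy.

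Control rows (62) were left out of 54675. The platform annotation gave 1 gene for 41091 probe sets, several for 1801 and none for 11721, and genes were named only from the first kind; 41037 matched the RefSeq table of GRCh38.p14 by Entrez ID. Log2 signals of the upper 50% of probe sets (27307) were compared in limma 3.58.1 (R 4.3.3) with trended, robust empirical Bayes, two-sided, and Benjamini-Hochberg adjustment over all tested probe sets with a threshold of 0.05. SE and 95% intervals of the siRNA differences come from that fit, which had no term for the clone. They and the p-values given without the replicate block therefore include the spread between clones. Clones were compared with an F-test in a fit with siRNA and clone. The steps were tested on simulated data. Signals of different probe sets were ranked only to apply the filter and to order those of the same gene.

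The replicate number is the clone number given by the labels, so it pairs the arrays; deviations of the 2 arrays of a clone from their group means correlated at 0.493, 0.234 and 0.236 over the tested probe sets. Whether the 3 arrays of a group came from separate experiments beyond the clones is not stated, so p-values measure the spread between these samples. Named by rule were TET1 to TET3, HOX genes past the threshold between siRNAs or clones, the 3 of smallest p in each cluster where no gene passed between siRNAs, and the 2 of smallest p in each other list or up to 3 that passed. Of these, the HOX genes and TET1 were given with the value of every array. TET2, TET3 and most members of the other lists were given as a percentage of control or a log2 difference. Other genes were named after their values were seen. The members, lists and tests were chosen with earlier results of these data known. Alternatives were another filter, a pseudocount, quantile normalization, plain empirical Bayes, the mean of a gene's probe sets, the clone as a block, a threshold of 0.1, and each array or clone left out.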

Additional observations from a re-analysis of the deposited data

How the results depend on the processing

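In all 22 alternatives tried the number of HOX genes past the threshold between the siRNAs stayed at 0 in limma, with the replicate block (0 of 25 tested) or without it, and the lowest adjusted p of any HOX gene, read by its brightest probe set, was 0.144, for HOXB5 without replicate 1 of both groups. The other HOXB5 probe set had 0.0914 with the replicate block. The blocks with no filter and with plain empirical Bayes were added after seeing the data. The median log2 difference ran from 0.03 to 0.13. For 10 of the HOX genes described with full values the direction held in every alternative in which the gene was tested. These were 20 for HOXA2 and HOXD4, 19 for HOXD9 and 21 for each of the rest. Sizes moved (HOXB8 0.19 to 0.67, HOXD10 0.01 to 0.22, HOXB3 0.05 to 0.20, HOXC4 0.07 to 0.22, HOXC6 0.05 to 0.18, HOXA2 -0.25 to -0.03). HOXD13 ran from -0.13 to 0.31 with arrays or clones left out and turned negative without TET siRNA replicate 3 (-0.13) or control replicate 2 (-0.06). The number of HOX genes called between clones was 2, and it was 4 at a threshold of 0.1, 1 with no filter, 0 with plain empirical Bayes, 0 for the mean of all probe sets, and 1 to 6 with an array left out, the 6 without the control of clone 2. With the replicate block all 3 TET genes passed in place of 1 when no filter was set. With 3 arrays per group, small differences between siRNAs could not be resolved, and values below the filter were not stable.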
